A study of Homo sapiens with 6 samples.

Results

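The genes described here are 10 keratin genes of epithelial cells, taken by name from the 58780 human genes in the deposited tables. They are KRT8, KRT18, KRT19, KRT20, KRT7, KRT23, KRT80, KRT10, KRT17 and KRT15. The series holds 6 RNA-seq libraries of HCT116, an established human colorectal carcinoma cell line. In 3 libraries (biological replicates 1 to 3) the cells were given auxin for 16 h, and the other 3, numbered in the same way, come from cells with the solvent DMSO alone. In cells built for it, the plant hormone auxin sets off the breakdown of a degron-tagged protein. The labels give no such protein, allele, clone, auxin dose or DMSO time, and the genotype label of each library repeats only the treatment. Total RNA was depleted of ribosomal RNA before stranded libraries were made. The question the design poses is how gene expression differs between auxin and DMSO.

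Keratins form the intermediate filaments of epithelial cells. A filament is built from heterodimers of 1 type I and 1 type II chain, and chains without a partner are unstable. KRT8 (type II) with KRT18 and KRT19 (type I) is the usual set of single-layered epithelium, including the colon, and KRT20 marks differentiated intestinal cells. Among the 10 genes 3 are of type II (KRT8, KRT7 and KRT80) and 7 of type I. KRT10, KRT15 and KRT17 are better known from stratified epithelium, where KRT10 marks suprabasal cells, KRT15 basal cells, and KRT17 appendages and injured skin, so these genes are not simple keratins in the usual sense.

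Library totals ran from 234037969 to 625895062 expected counts, and replicate 1 was the deepest library of each group. Of 14 markers of epithelium and colon, 7 were at or above 1 CPM (counts scaled to a common library size, as given below) in every library. CDH17, VIL1, LGR5, ASCL2, MUC2 and CEACAM5 were under 1 CPM in every library, and CDX1 had no count in any. The summed level of the 14 was 1296 to 1408 CPM in DMSO and 1276 to 1407 CPM in auxin. TJP1, a tight junction gene, took 591 to 622 and 604 to 663 CPM of it. Within that sum EPCAM, an epithelial adhesion molecule, was at 247 to 292 CPM in DMSO and 312 to 349 CPM in auxin, and CLDN7, a tight junction protein, at 95.2 to 116 and 8.51 to 8.95 CPM. None of 6 keratinocyte markers reached 1 CPM, and LOR had no count. Their summed level was 0.0993 to 0.125 CPM in DMSO and 0.342 to 0.431 CPM in auxin. Most of the difference was KRT14 alone, at 0.0461 to 0.110 CPM in DMSO and 0.311 to 0.397 CPM in auxin. Among the 5 immune markers CD68 alone reached 1 CPM in every library and was at 57.9 to 64.1 CPM in DMSO and 17.5 to 20.8 CPM in auxin, while PTPRC, which marks all leukocytes, was at or under 0.0108 CPM. In bulk RNA, fewer cells of a kind and less RNA per cell cannot be told apart.

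After auxin 7 of the 10 keratin genes were higher at an adjusted p under 0.05 (edgeR's quasi-likelihood test, Benjamini-Hochberg over 19725 genes), against 25.4% of all genes tested. They were KRT8, KRT18, KRT19, KRT20, KRT7, KRT23 and KRT80, with folds from 1.30 to 2.50. KRT15 was lower, against 26.9% of all genes, and KRT10 and KRT17 were not called. The median log2 fold change of the 10 genes was 0.59, and that of all genes tested was 0.025. The auxin libraries all lay above the DMSO libraries in CPM for 8 of the 10, the 7 called genes and KRT17, against 30.0% of all genes tested. CPM is the rounded expected count relative to the library total, scaled with TMM factors and set to a common size.

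**Figure D1:**
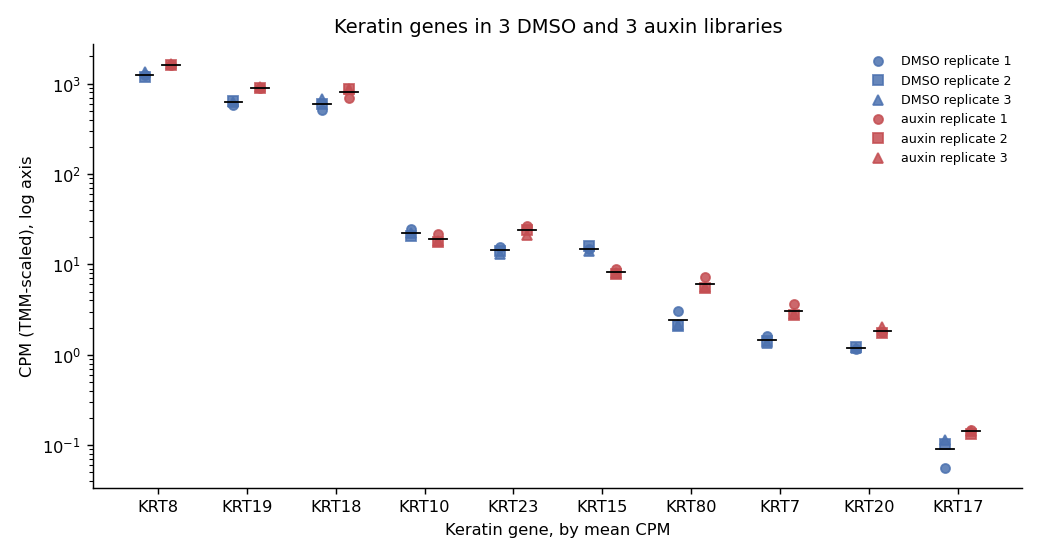
CPM on a log axis for each of the 10 keratin genes in the 3 DMSO (blue) and 3 auxin (red) libraries, with the replicate number as the marker and the group mean as a line. The auxin points lie above the DMSO points for 8 genes, below them for KRT15, and overlap them for KRT10.

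KRT8 encodes the main type II keratin of simple epithelium (GRCh38 chromosome 12, 52897187 to 52949954, minus strand). It was at 1245, 1177 and 1334 CPM in DMSO replicates 1, 2 and 3 and at 1601, 1619 and 1645 CPM in auxin replicates 1, 2 and 3. The groups did not overlap, and the auxin libraries lay close together. The mean rose from 1252 ± 78.6 to 1622 ± 21.9 CPM (SD, n = 3), a log2 fold change of 0.37 with an SE of 0.07 (adjusted p = 0.00359).

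KRT18, the type I partner of KRT8, lies next to it on the opposite strand (chromosome 12, 52948871 to 52952901). Its CPM was 514, 604 and 677 in DMSO and 702, 873 and 874 in auxin. Replicate 1 was the lowest library in both groups, and the highest DMSO library lay just below the lowest auxin library. The log2 fold change was 0.45 (SE 0.13, adjusted p = 0.0226). The call was lost when auxin replicate 2 (adjusted p = 0.0776), auxin replicate 3 (0.0795), DMSO replicate 1 (0.0584) or DMSO replicate 2 (0.0723) was left out, with log2 fold changes of 0.40, 0.40, 0.35 and 0.44. With the replicate block the adjusted p was 1.06e-05. The annotated KRT8 and KRT18 genes share 1084 bases at their ends, but KRT8-201, which took 98.0% ± 0.6 of the KRT8 count in DMSO, begins at 52906618, outside that stretch.

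KRT19, the smallest keratin and one without a tail domain, lies on chromosome 17 (41523617 to 41528308, minus strand). It was at 588, 651 and 633 CPM in DMSO and at 896, 902 and 916 CPM in auxin. The gap between the groups was several times the spread inside either. KRT19 rose by a log2 fold change of 0.54 with an SE of 0.06 (adjusted p = 0.000421), from 624 ± 32.2 to 905 ± 10.4 CPM (SD, n = 3).

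The other genes called higher had lower levels and larger fold changes. KRT80, a type II keratin found in many epithelia (chromosome 12, 52168996 to 52192000, minus strand), was at 3.06, 2.08 and 2.16 CPM in DMSO and at 7.23, 5.45 and 5.62 CPM in auxin. Its log2 fold change of 1.32 with an SE of 0.19 (adjusted p = 0.000993) was the highest of the 10 and lay above 96.1% of all genes tested. KRT7, the type II keratin of ductal epithelium that colonic epithelium mostly lacks (chromosome 12, 52232520 to 52252186, plus strand), was at 1.61, 1.41 and 1.34 CPM in DMSO and at 3.62, 2.79 and 2.83 CPM in auxin. It rose 2.12-fold (log2 1.08, SE 0.15, adjusted p = 0.000820). For both genes replicate 1 was the highest library of its group, and every auxin library exceeded every DMSO library.

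KRT23, a type I keratin described in intestinal and pancreatic cells (chromosome 17, 40922696 to 40937634, minus strand), was at 15.6, 14.1 and 13.1 CPM in DMSO and at 26.3, 23.8 and 21.4 CPM in auxin. Its log2 fold change was 0.74 (SE 0.10, adjusted p = 0.000812). KRT20 (chromosome 17, 40875941 to 40885227, minus strand) was at 1.16, 1.22 and 1.19 CPM in DMSO and at 1.77, 1.74 and 2.03 CPM in auxin. It rose by a log2 fold change of 0.64 with an SE of 0.12 (adjusted p = 0.00377). The groups of both genes were apart, and KRT20 stayed near the bottom of the range of the 10 genes.

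KRT10 and KRT17 did not pass the test. KRT10 (chromosome 17, 40818117 to 40822595, minus strand) was at 24.5, 20.8 and 22.2 CPM in DMSO and at 21.5, 17.5 and 18.0 CPM in auxin, so the groups overlapped through replicate 1. Its log2 fold change was -0.24 (SE 0.10, adjusted p = 0.0859). Each auxin library was nonetheless below the DMSO library of the same number. With the replicate number as a block, the same-numbered libraries being paired, the change was called (log2 -0.25, adjusted p = 0.000747), as were 34.4% of all genes in that direction. It was also called without auxin replicate 1 (adjusted p = 0.0160).

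KRT17 (chromosome 17, 41619441 to 41624842, minus strand) had only 29 to 95 expected counts in a library. It was at 0.0565, 0.103 and 0.114 CPM in DMSO and at 0.147, 0.134 and 0.144 CPM in auxin. The groups did not overlap, but the log2 fold change of 0.67 carried an SE of 0.31 and did not pass the test (adjusted p = 0.111).

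KRT15 fell. The gene (chromosome 17, 41513743 to 41522529, minus strand) was at 14.9, 15.9 and 14.1 CPM in DMSO and at 8.91, 7.77 and 8.004 CPM in auxin. Every auxin library was far below every DMSO library. The mean went from 14.9 ± 0.9 to 8.23 ± 0.60 CPM (SD, n = 3), a log2 fold change of -0.86 with an SE of 0.09 (adjusted p = 0.000197), and the call held in each of the 17 other fits, with adjusted p up to 0.00538.

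All 7 genes called higher kept a positive log2 fold change in the 17 other fits, and KRT15 and KRT10 a negative one. The number called differed in a fit that changed the tool, the unit, the scaling and the filter together. With limma on log2(TPM + 1) and no block, 0 of the 10 genes were called higher (2 at an unadjusted p under 0.05, and 7 by both edgeR and DESeq2 on counts); with the replicate block, an alternative chosen after seeing the data, 6 were, all but KRT8 (adjusted p = 0.120). TPM, which divides by transcript length and was used without TMM factors, moved the median gene by -0.14 on the log2 scale. Upper-quartile factors moved it by 0.12. The share of higher among all calls was then 21.0% and 59.7%, against 48.5% with TMM.

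**Figure D2:**
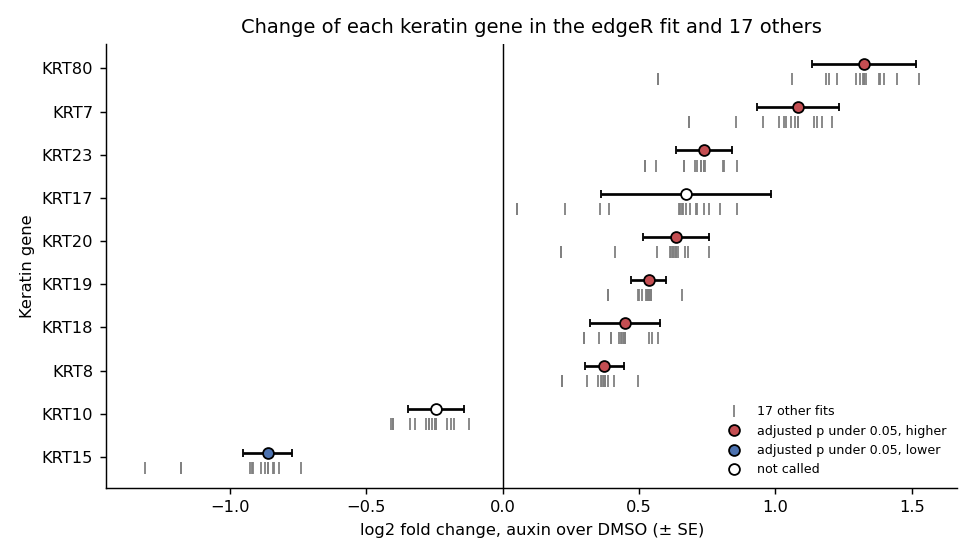
The log2 fold change of auxin over DMSO for each of the 10 keratin genes, as a point with its SE from the edgeR fit and as grey ticks for 17 other fits (other scalings, filters, tools and left-out libraries). The point is filled where the adjusted p was under 0.05. No tick of any gene lies on the other side of 0 from its point.

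Set side by side per length, 3 genes made up nearly all keratin RNA. In DMSO the TPM was 757 ± 163 for KRT8, 524 ± 87.4 for KRT19 and 441 ± 47.1 for KRT18, followed by 43.6 ± 14.5 for KRT10, 13.2 ± 2.7 for KRT15 and 10.2 ± 3.0 for KRT23 (SD, n = 3). KRT7 (2.70 ± 0.78), KRT20 (0.78 ± 0.14), KRT80 (0.69 ± 0.31) and KRT17 (0.14 ± 0.03) followed. Neighbours in this order whose DMSO ranges overlapped were KRT8 with KRT19, KRT19 with KRT18, KRT15 with KRT23 and KRT20 with KRT80. Within every DMSO library the order was still the same except for KRT20 and KRT80, where 2 of 3 had KRT20 higher. The TPM of KRT10 and KRT7 leans on short annotated transcripts. KRT10-202, of 583 bases, held 90.7% of the KRT10 TPM in DMSO, and KRT7-209, of 499 bases, 45.0% of that of KRT7. By CPM in DMSO KRT7 (1.45 ± 0.14) lay below KRT80 (2.43 ± 0.54), and KRT10 was at 22.5 ± 1.9 beside KRT15 at 14.9 ± 0.9.

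In auxin the order changed at its lower ranks. KRT23 (14.98 ± 3.42 TPM) stood above KRT15 (5.25 ± 0.94) in all 3 libraries, and KRT80 (1.51 ± 0.46) above KRT20 (1.07 ± 0.15) in all 3. KRT15 and KRT7 (4.95 ± 1.34) overlapped. The top of the order, KRT8 at 870 ± 101.4, KRT19 at 683 ± 88.5 and KRT18 at 540 ± 16.6 TPM, was that of DMSO.

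KRT8, KRT18 and KRT19 together held 96.1% ± 0.5 of the TPM of the 10 genes in DMSO and 97.2% ± 0.4 in auxin. KRT10 took 2.81, 2.15 and 2.21% in DMSO and 1.81, 1.33 and 1.33% in auxin. KRT15 went from 0.740% ± 0.110 to 0.243% ± 0.021. KRT19 went from 29.3% ± 1.5 to 31.6% ± 1.0, KRT7 from 0.149% ± 0.019 to 0.228% ± 0.039, KRT80 from 0.0374% ± 0.0102 to 0.0692% ± 0.0143 and KRT20 from 0.0435% ± 0.0012 to 0.0494% ± 0.0037. The groups of these 6 genes did not overlap, each with an exact two-sided permutation p of 0.1, the smallest that 3 against 3 libraries allow (0.167 adjusted over the 10 shares). In shares of CPM, which does not divide by length, KRT10 differed by -0.33 points in place of -0.90, and KRT8, KRT18 and KRT19 together by 0.42 in place of 1.15.

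The balance of the filament partners was a little lower on the type II side in every same-numbered pair, with overlapping groups. The type II genes held 42.2% ± 1.9 of the TPM of the 10 genes in DMSO and 40.7% ± 0.8 in auxin, with overlapping groups (exact permutation p = 0.3). The ratio of KRT8 to KRT18 in TPM was 1.943, 1.577 and 1.599 in DMSO and 1.824, 1.496 and 1.517 in auxin. It was highest in replicate 1 of both groups, and the groups overlapped (exact permutation p = 0.5). Within same-numbered pairs the ratio was lower in auxin in 3 of 3, by -0.119, -0.081 and -0.081, and the type II share in 3 of 3, by -2.35, -0.13 and -2.09 points. The exact sign-flip p was 0.25 for both, the smallest that 3 pairs allow. The 10 genes took 0.261% ± 0.013 of all human gene counts in DMSO and 0.330% ± 0.008 in auxin.

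The net fall of KRT15 lay mostly in its protein-coding transcripts, as the authors' transcript tables assign the reads. The 4 protein-coding KRT15 transcripts summed to 8.20, 8.46 and 7.52 CPM in DMSO and to 2.27, 1.85 and 1.79 CPM in auxin, 0.244 times the DMSO mean. Most of the auxin sum was KRT15-201, at 1.81 ± 0.14 CPM in DMSO and 1.43 ± 0.30 CPM in auxin. It has 8 exons and 5237 bases, against 10 exons and 2394 bases for the protein-coding KRT15-203. The annotated types therefore need not separate spliced from intron-holding RNA, and the intron sequence in KRT15-201 was not examined. The 3 retained-intron transcripts summed to 6.17, 6.64 and 5.98 CPM in DMSO and to 6.54, 5.77 and 6.12 CPM in auxin, with overlapping groups. Within that sum KRT15-207 rose. KRT15-205 fell from 2.82 ± 0.15 to 1.46 ± 0.22 CPM and KRT15-209 from 0.960 ± 0.252 to 0.312 ± 0.056 CPM. The 2 transcripts annotated for nonsense-mediated decay were at 0.620 ± 0.140 and 0.119 ± 0.031 CPM. The retained-intron share of the KRT15 count thus went from 41.9% ± 0.6 to 74.7% ± 1.6 (SD, n = 3).

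A pair of transcripts carried most of this. KRT15-203, a protein-coding transcript of 10 exons, held 34.1, 34.9 and 38.5% of the count in DMSO and 4.04, 6.23 and 6.71% in auxin, and its level went from 5.34 ± 0.23 to 0.461 ± 0.091 CPM. KRT15-207, an annotated retained-intron transcript of 6 exons, held 17.1, 15.3 and 17.6% in DMSO and 51.1, 52.4 and 56.0% in auxin, and its level went from 2.48 ± 0.07 to 4.37 ± 0.26 CPM. The groups were far apart for both, with an exact permutation p of 0.1, the smallest possible, and 0.288 adjusted over the 23 transcripts compared. In share of TPM, where a long transcript weighs less, KRT15-207 went from 7.81% to 30.8% and KRT15-203 from 18.4% to 3.65%.

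The other KRT15 transcripts moved less in share of the count. KRT15-201 (protein-coding) held 12.1% ± 0.3 and 17.3% ± 2.4 of the count, and KRT15-205 (retained intron) 18.9% ± 0.9 and 17.7% ± 1.4. In share of TPM KRT15-205 went the other way, from 31.5% to 36.7%. KRT15-209 (retained intron) held 6.37% ± 1.29 and 3.83% ± 0.92.

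KRT15-207 differs from KRT15-203 at both ends. Its last exon (chromosome 17, 41513746 to 41515692, 1947 bases) keeps 2 introns, 1 of 797 bases (41514675 to 41515471) and 1 of 528 bases (41514121 to 41514648), with a 26-base exon between them. It lacks exons 2 and 4 of KRT15-203 (41519345 to 41519872 and 41517083 to 41517165) and holds 132 of the 681 bases of exon 3, so the annotated start of the coding sequence at 41518827 is not in it. The sequences below are from the GENCODE release 29 transcripts on GRCh38, minus strand, 5′ to 3′. They show stretches by which KRT15-207 and KRT15-203 can be told apart. KRT15-209 begins at 41514754, inside the first kept intron, so the end of that intron is not particular to KRT15-207. In the kept introns the capitals mark intron bases, which begin with gt and end with ag.
Start of the first kept intron (chr17:41515432-41515491): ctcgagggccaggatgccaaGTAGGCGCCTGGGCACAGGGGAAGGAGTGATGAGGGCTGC
End of the first, 26-base exon, start of the second (chr17:41514609-41514714): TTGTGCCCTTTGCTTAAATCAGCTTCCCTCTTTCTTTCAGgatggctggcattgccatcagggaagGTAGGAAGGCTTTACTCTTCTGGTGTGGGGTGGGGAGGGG
End of the second kept intron (chr17:41514101-41514160): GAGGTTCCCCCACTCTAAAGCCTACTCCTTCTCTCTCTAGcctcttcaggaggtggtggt
In the next sequence the capitals are exon 4, 83 bases, between 20 bases of each neighbouring exon of KRT15-203, and the last sequence is the junction that KRT15-207 has in its place.
KRT15-203 across exon 4: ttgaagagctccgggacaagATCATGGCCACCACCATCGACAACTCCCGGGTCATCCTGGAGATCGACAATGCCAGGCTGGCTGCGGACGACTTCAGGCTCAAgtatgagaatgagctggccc
KRT15-207 without exon 4: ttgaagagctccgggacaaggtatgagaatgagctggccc

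**Figure D3:**
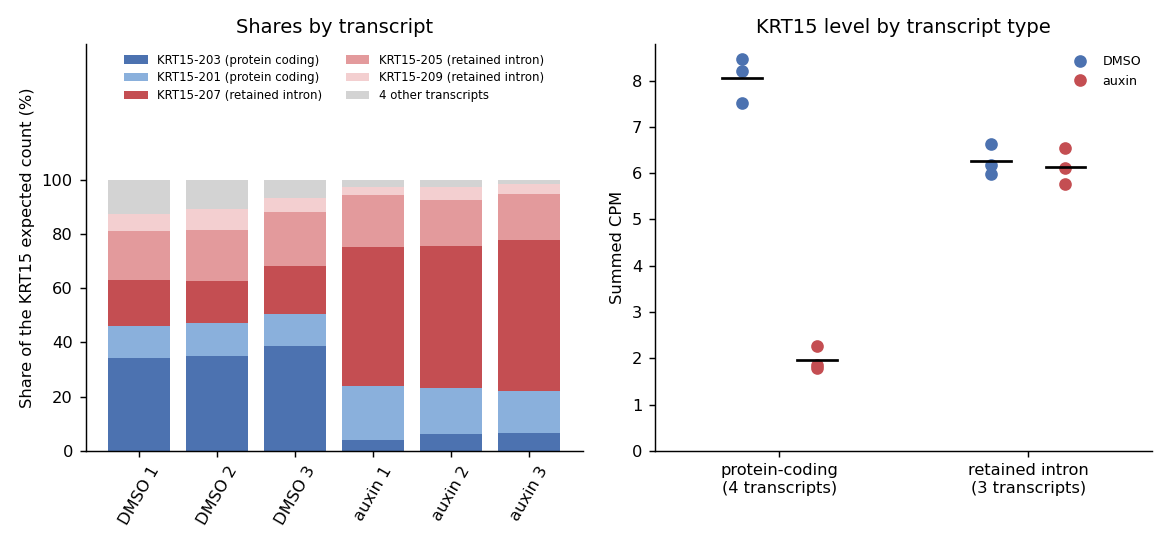
Left, the share of the KRT15 expected count held by each transcript in each library, as stacked bars to 100%. Right, the summed CPM of the protein-coding and of the retained-intron transcripts, with a point for each library and a line at the group mean: the protein-coding sum is 7.52 to 8.46 in DMSO and 1.79 to 2.27 in auxin, and the retained-intron sums overlap.

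The retained-intron share was compared over all 7015 genes that have such a transcript and at least 100 counts in every library. It was higher in all auxin than in all DMSO libraries for 22.8% of these genes, and among the 8 keratin genes it could be computed for, this held for KRT15 and KRT19. The KRT15 difference of 32.8 percentage points was exceeded by 149 genes, and the median difference was 0.016 points. KRT19 went from 0.279% ± 0.048 to 0.557% ± 0.140, and KRT8 (0.964% ± 0.341 and 0.954% ± 0.362) and KRT18 (0.731% ± 0.112 and 0.770% ± 0.151) overlapped. The posterior SD of the assignment reached at most 0.775% of the gene count for KRT15-207 and 0.958% for KRT15-203. It does not cover RNA of a structure the annotation lacks, and whether unspliced RNA enters these transcripts was not tested.

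In the other 8 genes with transcripts compared, the leading transcript by mean share of the count was the same in both groups. For KRT17, with too few counts, none was compared. KRT23-201 went from 49.7% ± 1.1 to 46.2% ± 1.3 of its count without overlap. In share of TPM it was level with KRT23-202 in DMSO (39.2% and 39.1%), while KRT23-202 led in auxin (43.7% against 36.9%). KRT19-201 held 99.6% ± 0.1 and 99.4% ± 0.2 of its count, and KRT18-201 held 84.4% ± 4.1 and 82.1% ± 3.4. KRT7-201, the full protein-coding transcript, held 52.6% ± 6.6 and 55.8% ± 5.3. KRT7-206, a non-coding processed transcript, went from 1.72% ± 0.46 to 6.14% ± 1.06 without overlap, and KRT7-209, another, from 24.9% ± 4.6 to 17.9% ± 1.5. KRT7-206 ends at 52252186, past the start at 52249300 of KRT86, a gene on the same strand. No other KRT7 transcript reaches that far. How reads there were divided between KRT7 and KRT86 was not tested. For KRT10, 65.9% ± 2.5 of the DMSO count and 65.2% ± 3.3 of the auxin count fell on KRT10-202, a transcript of 2 exons and 583 bases at the end of the gene.

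Several of the 10 genes overlap others, and the sources do not say whether counting used the strand. KRT86 shares 2887 bases with KRT7 on the same strand, where strand does not separate them. It was at 0.167 ± 0.048 CPM in DMSO and 0.246 ± 0.008 CPM in auxin (log2 0.54, adjusted p = 0.105). TMEM99 shares 3490 bases with KRT10 on the opposite strand and moved the other way, from 12.9 ± 1.2 to 15.6 ± 1.4 CPM, without passing the test (log2 0.27, adjusted p = 0.0661). LINC00592 covers KRT80 on the opposite strand at 0.0405 ± 0.0056 CPM in DMSO and 0.127 ± 0.045 CPM in auxin (log2 1.63, SE 0.35, adjusted p = 0.00638), and AC004231.1 covers KRT23 likewise at 0.0586 ± 0.0054 and 0.129 ± 0.007 CPM (log2 1.14, SE 0.23, adjusted p = 0.00501). Both lie far below the keratin they cover. KRT8 and KRT18 have many processed pseudogenes. The 7 calls and their directions were the same when counts of named pseudogenes were added to the parent gene.

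Neighbouring keratin genes moved in different directions. On chromosome 17 KRT13, KRT15 and KRT19 are direct neighbours on the same strand, with 8037 and 1087 bases between them. KRT13, a keratin of wet stratified epithelium, fell with KRT15, at 10.6, 7.94 and 8.23 CPM in DMSO and 5.44, 4.14 and 4.82 CPM in auxin (log2 -0.90, SE 0.15, adjusted p = 0.00229). KRT19, next to KRT15, rose. On chromosome 12 the called genes, KRT80, KRT7, KRT81, KRT6B, KRT6A, KRT8 and KRT18, were all higher, where 48.5% of all calls over all genes were higher. KRT86 (log2 0.54, adjusted p = 0.105) and KRT83 (-0.74, 0.249), at low levels in the same cluster, were tested and not called.

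**Figure D4:**
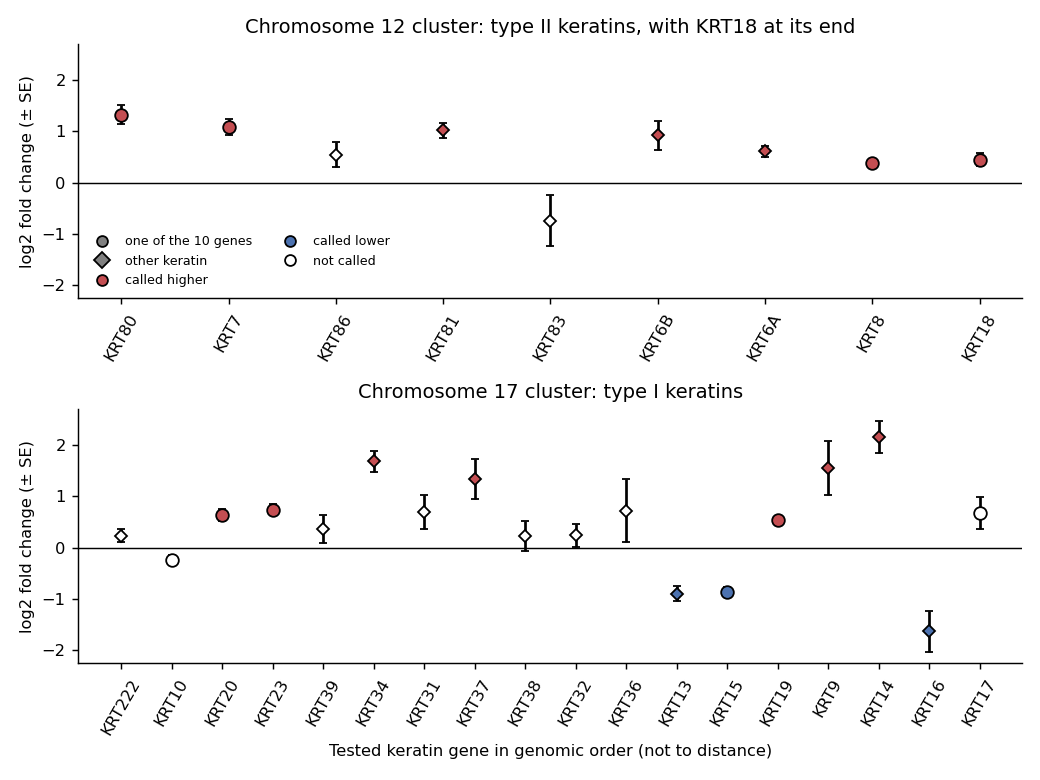
The log2 fold change with its SE for every tested keratin gene in genomic order, for the chromosome 12 cluster (top) and the chromosome 17 cluster (bottom). Circles are the 10 genes, diamonds other keratins, and filled symbols passed an adjusted p of 0.05. KRT13 and KRT15 at -0.90 and -0.86 sit beside KRT19 at 0.54.

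Among 45 other protein-coding keratin genes 17 could be tested, of which 7 were higher, 2 were lower and 8 were not called, with a median log2 fold change of 0.61. Here and for the lists that follow, 25.4% of all genes tested were higher and 26.9% lower. KRT34, a hair keratin, rose from 0.996 ± 0.239 to 3.19 ± 0.43 CPM (log2 1.68, adjusted p = 0.000419). KRT81, also a hair keratin, rose from 1.59 ± 0.19 to 3.22 ± 0.38 CPM (log2 1.02, adjusted p = 0.000917), and KRT6A, induced in wounded and hyperproliferative epithelium, from 7.28 ± 0.38 to 11.1 ± 1.4 CPM (log2 0.61, adjusted p = 0.00297). KRT13 and KRT16 were the genes called lower. KRT14, the basal keratinocyte keratin that is also in the marker list above, was higher at under 0.4 CPM (log2 2.16, adjusted p = 0.00107), while TP63, the factor that defines basal keratinocytes, was at or under 0.0355 CPM.

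Of 150 keratin pseudogenes and antisense genes 17 could be tested, and 3 were called, all higher, a smaller share than the 25.4% of all genes. They were KRT8P12 (0.423 ± 0.058 to 0.843 ± 0.096 CPM), KRT8P33 (0.514 ± 0.095 to 1.09 ± 0.30 CPM) and KRT18P55 (0.0113 ± 0.0062 to 0.0983 ± 0.0364 CPM). Reads of such copies cannot be fully separated from those of the parent gene, so these values are uncertain.

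Of 19 desmosome and cytolinker genes, whose products anchor keratin filaments, 18 were tested, with 8 higher, 6 lower and a median of 0.35, against 25.4% and 26.9% of all genes. Desmosomal DSP, which ties keratins to the junction, rose from 608 ± 17.4 to 894 ± 27.3 CPM (log2 0.56, adjusted p = 0.000274). The cadherin DSC3 (log2 0.69, adjusted p = 3.66e-05), the membrane protein PERP (0.61, 0.000695) and the cytolinker MACF1 (0.43, 0.000791) rose too. The plakophilin PKP3 fell from 21.3 ± 1.9 to 1.23 ± 0.27 CPM (log2 -4.10, adjusted p = 4.89e-06). The plakin PPL fell from 40.9 ± 3.7 to 7.58 ± 0.50 CPM (log2 -2.43, adjusted p = 3.44e-06). Its partner EVPL (log2 -1.18, adjusted p = 0.00257) and PLEC, which links keratins to hemidesmosomes (-1.10, 0.0126), fell as well.

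A list of 21 genes was drawn up for products that bind, modify or cleave keratins. It also holds KRTCAP2 and KRTCAP3, for which no such role is given here. Of the 21 genes, 4 were higher and 10 lower, with a median of -0.20, against 25.4% and 26.9% of all genes. With the replicate block 9 were higher and 12 lower, against 35.5% and 34.4% of all genes. PRKCD, a kinase of KRT8, fell from 29.4 ± 1.9 to 2.83 ± 0.28 CPM (log2 -3.38, adjusted p = 1.99e-06). TRADD, an adaptor of the TNF receptor that binds KRT18, fell from 2.60 ± 0.22 to 0.629 ± 0.224 CPM (log2 -2.03, adjusted p = 0.000476). KRTCAP3 (log2 -2.79, adjusted p = 2.06e-05) and KRTCAP2 (-1.68, 1.13e-05), named as keratinocyte-associated proteins, fell too. The 14-3-3 family genes YWHAG (log2 0.39, adjusted p = 0.0137) and YWHAZ (0.35, 0.00990), whose family binds phosphorylated KRT18, rose. So did the kinase CSNK1A1 (0.34, 0.00377) and the SUMO ligase PIAS1 (0.28, 0.00340), of which PIAS1 had -0.02 with limma on log2(TPM + 1).

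Of 15 other intermediate filament genes 9 were tested, with 3 higher, 5 lower and a median of -0.71, against 25.4% and 26.9% of all genes. The nuclear lamin LMNB2 fell from 183 ± 8.2 to 65.6 ± 2.6 CPM (log2 -1.48, adjusted p = 4.74e-06), LMNB1 from 155 ± 9.1 to 94.6 ± 5.2 CPM (log2 -0.71, adjusted p = 0.000153) and the progenitor filament gene NES from 14.5 ± 1.2 to 5.93 ± 0.73 CPM (log2 -1.29, adjusted p = 0.000119). VIM, the filament of mesenchymal cells, rose from 2.00 ± 0.13 to 3.53 ± 0.09 CPM (log2 0.82, adjusted p = 0.000555), far under KRT8. BFSP1 (log2 1.13, adjusted p = 0.000473) and SYNM (0.36, 0.0367) rose too.

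Of 38 transcription factors known to act at keratin genes or in epithelial differentiation 34 were tested, with 13 higher, 9 lower and a median of 0.17. Of all genes tested 25.4% were higher and 26.9% lower, and the share called lower in the list was near that of all genes. FOSL1, an AP-1 subunit, rose from 186 ± 8.3 to 541 ± 45.5 CPM (log2 1.54, adjusted p = 1.06e-05), and ETS1 from 75.3 ± 4.4 to 146 ± 11.9 CPM (log2 0.96, adjusted p = 7.23e-05). SNAI2 (log2 1.66, adjusted p = 5.96e-05) and ZEB1 (0.69, 0.000137), repressors of epithelial genes, rose. The epithelial factors GRHL3 (log2 -1.22, adjusted p = 0.000138) and GRHL2 (-0.68, 0.000604) fell, as did TFAP2C (-0.98, 0.000138) and TFAP2A (-0.68, 0.00215).

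**Figure D5:**
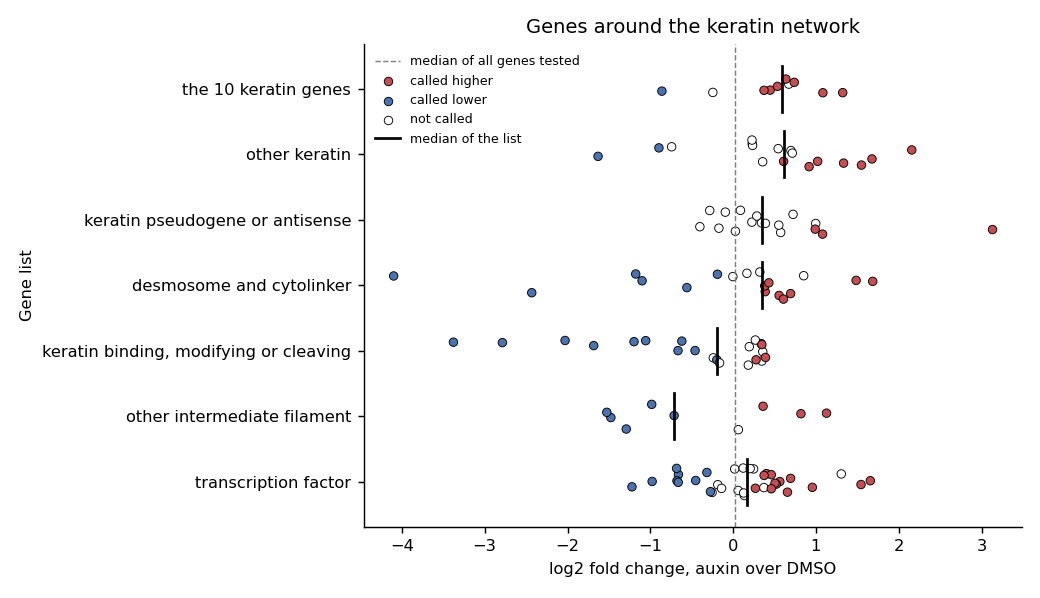
The log2 fold change of every tested gene in the 10 keratin genes and the 6 lists around them, with filled points for an adjusted p under 0.05, a black line at each list's median and a dashed line at the median of all genes tested (0.025). The medians run from -0.71 for other intermediate filaments to 0.61 for other keratins.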

How the data were processed

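RNA-seq gene and transcript tables of 3 auxin and 3 DMSO libraries were used. Per the file headers, the authors deposited an expected count (an estimated read count, not normalized), TPM and a posterior SD of the count for each gene and transcript. The submitters' processing notes name bcl2fastq 2.20, STAR, DESeq2 and the builds GRCh38 and hg38, with no role or order. The annotation and the use of strand in counting are not given in the sources used here. All 58780 human gene IDs matched GENCODE release 29 (GRCh38), which gave symbols, coordinates and sequences. A further 649 numeric IDs took 2.55 to 11.1 CPM, and these and 97 spike-in and phiX IDs, all at 0, were left out.

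Expected counts were rounded and tested with edgeR 4.0.16 in R 4.3.3 (filterByExpr, TMM, glmQLFit and glmQLFTest; Benjamini-Hochberg, calls at adjusted p under 0.05), a procedure tested on simulated data. DESeq2 1.42.0 and limma 3.58.1 (genes with a mean TPM of at least 0.1, pseudocounts of 1 and 0.1) were alternatives. Shares were compared by exact two-sided permutation over 20 assignments. Transcripts needed a mean share of at least 5% in either group, in genes with at least 100 counts in every library. Same-numbered libraries deviated together from their group means (r = 0.65, 0.27 and 0.28 over genes, each above the limit of 0.1). The numbers were therefore taken to pair the libraries in the replicate-block fits and the sign-flip test. The main edgeR fit and the permutation tests did not use the pairs. Replicates 2 and 3 were less distinct, since DMSO 3 with auxin 2 gave 0.31 and DMSO 2 with auxin 3 gave 0.18. The labels call the libraries biological replicates and no more, so p-values measure the spread between these libraries. Libraries of a group differed by a chi-square per degree of freedom of 38.2 to 577.1, so none was a copy. Intervals from depth cover counting error only.

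The members and lists were chosen with earlier results of these data known. All 10 members are named, and from each list up to 4 called genes per direction with the largest change and a mean CPM of at least 1 (0.1 for pseudogenes). KRT16, KRT14, KRT6B, KRT83, TP63, LOR, the overlapping genes and the other markers were named after their values were seen. So was KRT18P55, which lies under the CPM minimum for pseudogenes.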

Additional observations from a re-analysis of the deposited data

How the results depend on the processing

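Over 17 other fits no log2 fold change of the 10 keratin genes changed sign. The 7 genes called higher and 1 called lower remained 7 and 1 in number with RLE or upper-quartile factors, both filters, summed pseudogenes and DESeq2. With limma on log2(TPM + 1) and on log2(TPM + 0.1), 0 genes were called higher with either pseudocount (2 and 3 at an unadjusted p under 0.05), and 28 and 27 of the list genes were called in place of 70. With the replicate block, 2 genes were called lower in place of 1, KRT10 being added, and the block changed no other call among the 10 genes. The same 2 genes were called lower with replicates 2 and 3 only and with limma on log2(TPM + 1) with the replicate block. Leaving out a library gave 1 to 2 called lower, 6 to 7 called higher and 60 to 74 list genes. The KRT15-207 difference was 35.1 to 37.5 points without a library and 22.9 points in share of TPM, against 36.5 points, as TPM weighs the longer transcript less. The type II share differed by -0.64 to -2.51 points without a library. KRT17 had the fewest counts of the 10 genes, 29 to 95 in a library.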
